A study of Homo sapiens with 2 samples.

Results

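MiR-191 and miR-425 are 2 hairpins that lie side by side on chromosome 3, and miR-425 was the miR that the study used as the internal reference of its PCR assays. All names in the deposited table whose stem is miR-191 or miR-425 were taken, without regard to case, arm suffix or asterisk, which gave 5 of 934 names, 3 for miR-191 and 2 for miR-425. Small RNA was sequenced from K562/ADM, a line made from K562 by growth in rising doses of adriamycin (an anthracycline drug) and kept in 1000 ng/mL of it, and from K562, the human chronic myelogenous leukemia line it came from, which was grown without the drug. Each line gave 1 library, so there is no replicate check, no test between the lines was possible, and the comparison is of 2 libraries rather than of resistance. Drug exposure at harvest and the selected state of the line cannot be told apart. No source used here says whether K562/ADM is 1 clone.

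A miR hairpin is cut from a longer transcript by Drosha, and Dicer then frees a duplex of its arms. As a rule 1 arm is kept by Argonaute as the guide and the other, marked by an asterisk in older names, is lost. MiR-191 and miR-425 are widely expressed, and miR-191 in particular has been used as an internal reference in PCR work on several tissues. Hairpins that share a transcript are often measured at similar ratios between cells, although each is also cut and degraded on its own.

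In the GENCODE annotation of GRCh37, MIR425 lies at chr3:49057581-49057667 and MIR191 at chr3:49058051-49058142, both on the minus strand, with 383 nt between them. Both lie in introns of 4 of the 15 annotated transcripts of DALRD3 (chr3:49052921-49059726, minus strand), which encodes a protein that takes part in the methylation of arginine tRNAs, and upstream of its canonical transcript, whose 5′ end is at 49056013. MIR191 also lies in an intron of NDUFAF3, a gene of the plus strand at chr3:49057892-49060928 whose product helps assemble mitochondrial complex I. The deposited table holds miR names and no coordinates.

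The mature sequences are shown because the arms and hairpins must be told apart by their reads before their ratios can be set beside each other. They were read from RefSeq on GRCh38.p14, where they lie on the minus strand at chr3:49020672-49020694, chr3:49020631-49020652 and chr3:49020159-49020180 in the order given, and the capitals mark the seed, bases 2 to 8 from the 5′ end. MiR-425 itself, the guide arm (miR-425-5p), is named only. Its sequence was missing from the set used here, so the seed and mismatch checks below do not cover it.
hsa-miR-191-5p, deposited as miR-191: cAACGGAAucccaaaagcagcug
hsa-miR-191-3p, deposited as miR-191*: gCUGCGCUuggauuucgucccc
hsa-miR-425-3p, deposited as miR-425*: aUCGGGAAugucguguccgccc
The 3 seeds differ, and 0 other mature miRs among the 2370 in the RefSeq table hold any of them. With shifts of up to 3 bases and at least 17 paired bases, the nearest other mature miR differed at 6 bases for miR-191-5p (miR-146b-5p), at 6 for miR-191-3p (miR-593-3p) and at 7 for miR-425-3p (miR-12136).

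The deposited values are read counts divided by a size factor for each library. Divided by the lowest value other than 0 of its library, 100% of the values came out whole within 0.001, which gave the reads back. They came to 6895193 reads in K562/ADM and 7677738 in K562, over 815 and 828 names, and the 10 most abundant names held 83.7% and 79.7% of them. Of 6 miRs typical of blood cells, 6 had reads in both libraries, with a summed level of 80443 RPM (reads per 1000000 miR reads of the library) in K562/ADM and 54123 RPM in K562. MiR-142-3p (507475 and 351692 reads) made up most of it, and the other 5 summed to 6844 RPM in K562/ADM and 8316 in K562, with miR-223, miR-451 and miR-486-5p lower in K562/ADM. Of 16 miRs typical of other cell types 13 were listed, and their summed level was 3802 RPM in K562/ADM and 1588 in K562, with miR-9 (17882 and 7976 reads), miR-145 (6211 and 3045), miR-141 (743 and 893) and miR-143 (1279 and 204) the highest by summed reads. Their part in the results was not tested.

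MiR-425 was the most abundant of the 4 counted arms in both lines, and its share of the miR reads was nearly the same in both. Other scalings, given below, put its ratio of K562/ADM to K562 anywhere from 0.775 to 1.82. MiR-425 had 28536 reads in K562/ADM, against 32165 in K562. That was 4139 RPM (exact 95% interval 4091 to 4187) in K562/ADM and 4189 (4144 to 4235) in K562, or 0.414% and 0.419% of the reads. By abundance it was in place 18 in K562/ADM and in place 23 in K562. After scaling by the median of ratios, which is the method of DESeq, its values were 31578 in K562/ADM and 29066 in K562, a ratio of 1.09 (1.07 to 1.10), or 0.12 on the log2 scale. The study chose miR-425 as its reference from these same libraries, so the ratio describes that choice and does not test it. All intervals cover counting error only.

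MiR-191, the neighbour, which the study did not use, was close to miR-425 in this respect. It had 15172 reads in K562/ADM, against 17513 in K562, or 0.220% and 0.228% of the reads. It took place 38 in K562/ADM and place 37 in K562. Its scaled values were 16790 in K562/ADM and 15826 in K562, a ratio of 1.06 (1.04 to 1.08), or 0.09 on the log2 scale. The intervals of both ratios lay above 1, but by total reads both ratios were below 1, at 0.988 for miR-425 and 0.965 for miR-191, so that no direction can be given for either.

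The passenger arms were rarer than their guide arms by 161-fold to 1011-fold. Like the guide arms, both had fewer reads in K562/ADM, the library with fewer miR reads in total. MiR-425* had 116 reads in K562/ADM, against 200 in K562. That was 16.8 and 26.0 RPM, and the scaled ratio was 0.710 (0.560 to 0.897), or -0.49 on the log2 scale, an interval below 1 that upper-quartile scaling moved to 1.19. MiR-191* had 15 reads in K562/ADM, against 25 in K562, and a ratio of 0.735 (0.360 to 1.45), so that no difference was detectable at this depth. The fifth name, mir-191*, spelled in lower case, had 0 reads in K562/ADM and 1 in K562. The sources used here do not say what this spelling marks, and both counts are under the floor of 3 reads, which is 0.435 RPM in K562/ADM, so no ratio was formed. The exact upper limit of its level in K562/ADM was 0.535 RPM.

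**Figure D1:**
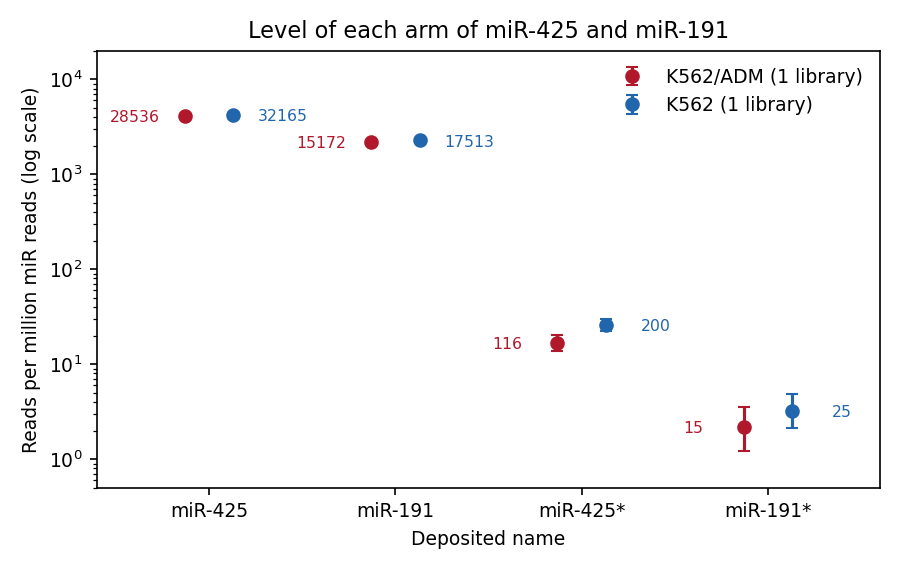
Level of each counted arm of miR-425 and miR-191 in RPM (y axis, log scale), K562/ADM in red at the left of each pair and K562 in blue. Points are single libraries, bars are exact 95% intervals that cover counting error only, and the numbers beside the points are reads. The guide arms differ little between the 2 libraries, at 4139 and 4189 (miR-425) and at 2200 and 2281 (miR-191). The bars of miR-425 overlap and those of miR-191 do not. MiR-425* is lower in K562/ADM, at 16.8 against 26.0.

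Of the 5 names, 0 differed by at least 2-fold between the libraries with an interval that excluded 1, and of all 934 names 250 did, which is 26.8% (15.6% lower and 11.1% higher in K562/ADM). Of the called names 41.6% were higher in K562/ADM, a share that was 70.1% under upper-quartile scaling and 23.8% when all sequenced reads were used. Among the 169 names with 1000 reads or more when both libraries are summed, a class that holds miR-425 and miR-191, 33.1% were called. An interval that excluded 1 at any fold, which 3 of the 4 counted arms had, was found for 43.8% of all names. That share takes in names with few reads, whose intervals are wide. No share at like depth was taken for this rule, so the arms cannot be ranked by it.

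Whether the partner and the arms moved with the reference was asked without any scaling, from the quotient of 2 miRs inside each library. MiR-191 had 0.532 reads for each read of miR-425 in K562/ADM (0.521 to 0.542) and 0.544 in K562 (0.535 to 0.555). The quotient of these, 0.977, had an interval of 0.950 to 1.003, which contains 1. The proportion of the neighbours thus differed by less than the counting error resolves, and no scaling changes this value.

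The arms of miR-425 did not keep theirs. MiR-425* made up 0.405% of the reads of its hairpin in K562/ADM (0.335% to 0.485%) and 0.618% in K562 (0.535% to 0.709%). Relative to miR-425 it was at 0.654 of its K562 level in K562/ADM (0.515 to 0.826), or -0.61 on the log2 scale, and this interval excludes 1. For miR-191 the passenger arm made up 0.0988% of the hairpin in K562/ADM (0.0553% to 0.163%) and 0.143% in K562 (0.0923% to 0.210%), and the quotient of 0.693 had an interval of 0.339 to 1.37. The 2 passenger arms stood in much the same proportion to each other in both libraries, with a quotient of 1.03 that was poorly bounded (0.486 to 2.14).

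The difference between the arms of miR-425 was of ordinary size among hairpins. In 73 other hairpins outside 14q32 with at least 50 reads in each arm, the median absolute log2 difference between the arms was 0.51, and 41 of the 73 had a smaller difference than the 0.61 of miR-425. The rarer arm had the lower ratio in 47 of the 73, with a median difference of -0.21 on the log2 scale. In these hairpins the rarer arm made up a median of 8.88% of the reads in K562/ADM and 11.2% in K562, and in each library 9 hairpins had a smaller share than miR-425. MiR-191*, at 40 reads, was under the minimum for this comparison.

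Summed over both arms, the hairpins gave nearly the same values as their guide arms. MiR-425 had 28652 reads in K562/ADM and 32365 in K562, a ratio of 1.08 (1.07 to 1.10). MiR-191 had 15187 reads in K562/ADM and 17538 in K562, a ratio of 1.06 (1.04 to 1.08). Together they held 0.636% of the reads in K562/ADM and 0.650% in K562.

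How near a ratio lies to 1 depends on how the libraries are scaled, and 7 scalings without a reference miR were compared. Each multiplies every ratio by the same number, so it moves the arms together and leaves their quotients as they are. MiR-425 had a ratio of 0.988 by total reads, 1.09 by TMM (a trimmed mean of the ratios), 1.82 by upper quartile, 1.01 by the median of ratios without the 14q32 domain and 1.18 by the median of ratios over names with at least 100 reads. MiR-191 had 0.965, 1.06, 1.78, 0.987 and 1.15 under these scalings. Scaled by all reads sequenced, miR-425 was at 0.775 and miR-191 at 0.757. These scalings moved every log2 ratio by -0.14, 0.00, 0.74, -0.10, 0.12 and -0.49, in the order given. None of the 28 ratios of the 4 counted arms passed 2-fold, but only under some scalings was miR-425 within a few percent of 1.

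**Figure D2:**
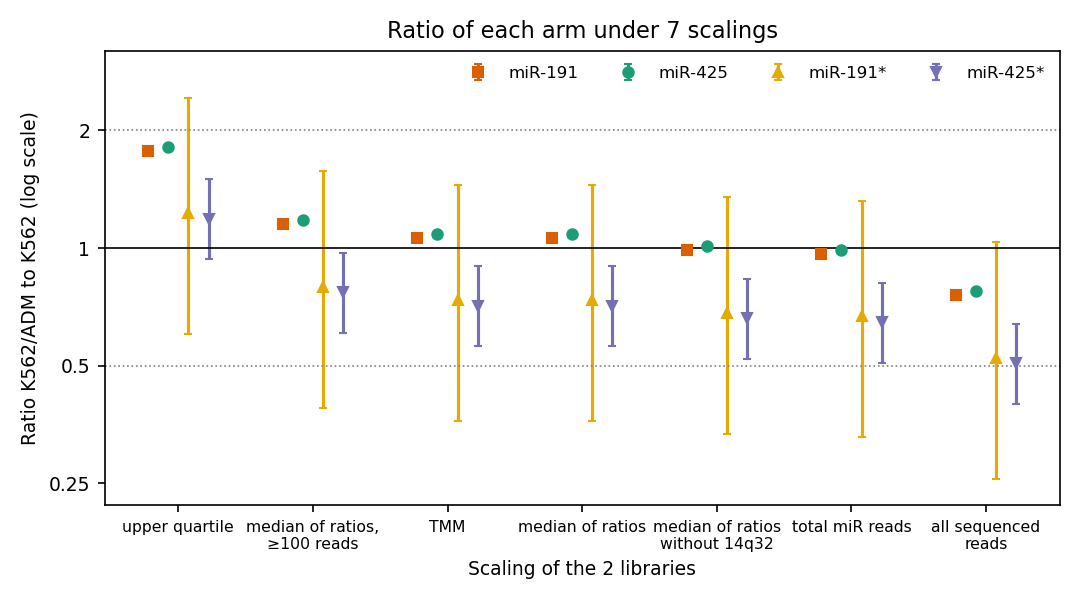
K562/ADM over K562 as a ratio (y axis, log scale) for the 4 counted arms under 7 scalings of the libraries (x axis), with exact 95% intervals that cover counting error only. The solid line marks equal levels and the dotted lines 2-fold differences. MiR-191 and miR-425 stay side by side and run between 0.757 and 1.82, and miR-425* lies below them under every scaling.

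Against other miRs that are often used or proposed as references, the pair stood near 1 with let-7a. Of 10 such names that were looked up, miR-191 and miR-425 among them, 10 were found. The ratio of miR-191 was the nearest to 1, followed by let-7a (2698 reads in K562/ADM and 3056 in K562, ratio 1.08, 1.03 to 1.14) and miR-425. The intervals of these 3 overlap, so their order is not resolved even by counting. MiR-93, from the miR-106b-25 cluster, was at 0.737 and miR-103 at 0.758, and their intervals overlap too. MiR-16, a common reference in blood and plasma, was at 1.48 (1.45 to 1.51) and miR-26a at 1.54 (1.52 to 1.57). The ends of the range were miR-92a at 0.513, with miR-423-5p at 0.574, and miR-24, which had 17093 reads in K562/ADM and 8669 in K562, a ratio of 2.41 (2.35 to 2.48).

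Of the 10, miR-24 alone was called, as higher, 6 had ratios above 1, and 3 lay within the limits of 0.8 and its inverse. The median log2 ratio of the 10 was 0.10, against -0.06 over the 169 names with at least 1000 reads. Over the 7 scalings the place of miR-425 by nearness to 1 ran from 1 to 7, and that of miR-191 from 1 to 5. By total reads miR-425 was in place 1, by all sequenced reads miR-16 was, and by upper quartile miR-423-5p was.

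Among the 169 well-counted names, 19 had a ratio nearer to 1 than miR-425, or 11.2%, and 13 were nearer than miR-191, or 7.69%. The place of miR-425, here and among the 10 candidates, describes the study's choice from these libraries and does not test it. The median absolute log2 ratio of the 169 was 0.65, against 0.12 for miR-425 and 0.09 for miR-191. The intervals of 19 other names overlapped that of miR-425, and those of 20 overlapped that of miR-191. Within 2-fold of the reads of miR-425 lay 24 names, whose log2 ratios ran from -5.67 (miR-127-3p, of the 14q32 domain) to 0.63 (miR-26a) around a median of -0.02. Of these 3 were called lower, 0 higher, and 3 were nearer to 1. Within 2-fold of the reads of miR-191 lay 31 names, from -1.48 (miR-7) to 1.46 (miR-9), of which 2 were called lower and 3 higher, and 2 were nearer to 1.

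The names most like miR-425 in log2 ratio, over these 2 libraries and at least 1000 reads, were miR-23b, let-7a, let-7e, mir-561* and miR-185. Of these miR-185 was counted most deeply, with 18042 reads in K562/ADM and 20010 in K562 and a ratio of 1.10 (1.08 to 1.13). The names most like miR-191 were miR-30b, mir-561*, let-7a, miR-425 and miR-23b. MiR-30b had 4956 reads in K562/ADM and 5725 in K562, a ratio of 1.06 (1.02 to 1.10). Likeness over a single pair of libraries is 1 number for each miR, and many names share it.

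**Figure D3:**
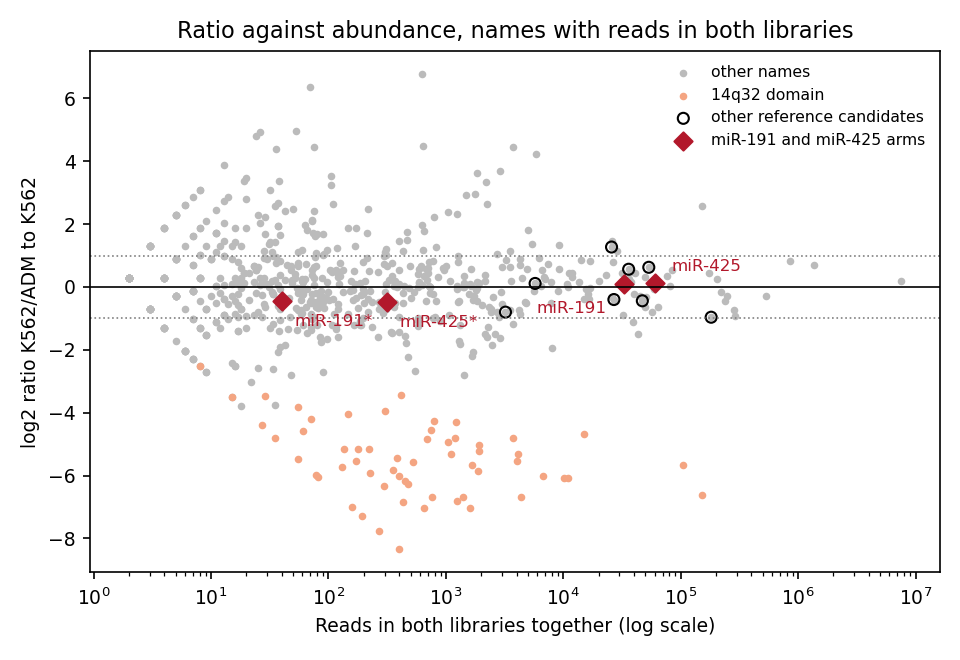
Log2 of K562/ADM over K562 (y axis) plotted on the summed reads of both libraries (x axis, log scale) for the 709 names read in each. Red diamonds are the arms of miR-191 and miR-425, open circles the other reference candidates, orange points the 14q32 domain, and dotted lines 2-fold differences. MiR-425 and miR-191 lie at 0.12 and 0.09, between miR-92a at -0.96 and miR-24 at 1.27, and the passenger arms lie at -0.49 and -0.44 where reads are fewer.

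The closeness of the pair was set beside other next neighbours among hairpins with at least 1000 reads, within 10 kb on 1 strand and outside 14q32. Hairpins were used where the mature name belongs to 1 gene. Names shared by several gene copies, such as miR-16, miR-19b, miR-24 and miR-92a, were left out, and so were their pairs. There were 16 such pairs, some of which share a hairpin. MiR-144 with miR-451 was also left out, because no strand was at hand for the gene of miR-451. The more abundant arm stood for each hairpin. The log2 ratios of miR-191 and miR-425 differed by 0.03, and those of the other pairs by a median of 0.56. Of the 16 pairs, 1 was nearer, miR-532-5p and miR-362-5p of chromosome X, with a difference of 0.01. Under 0.25 lay 4 of the 16 pairs, among them miR-23b and miR-27b (0.20), miR-25 and miR-93 (0.21) and miR-17 and miR-18a (0.22).

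At the other end, 3 pairs differed by over 1. These were miR-362-5p and miR-502-3p at 1.14, miR-301b and miR-130b at 1.37, and miR-143 and miR-145 at 1.62. MiR-362-5p is also in the nearest pair, with miR-532-5p. MiR-143 and miR-145 belong to the miRs typical of other cell types. MiR-17 and miR-18a come from 1 transcript with miR-19a and miR-20a, and the neighbours in it differed by up to 0.81 (miR-18a and miR-19a). Every pair within 10 kb among the hairpins used was also formed, not only next neighbours, an alternative added after the data were seen. It gave 21 other pairs with a median of 0.67. Of these, 5 differed by over 1 and 1 was nearer than miR-191 and miR-425. With the limit at 2 kb, 13 other pairs had a median of 0.55, and 0 were nearer than miR-191 and miR-425.

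**Figure D4:**
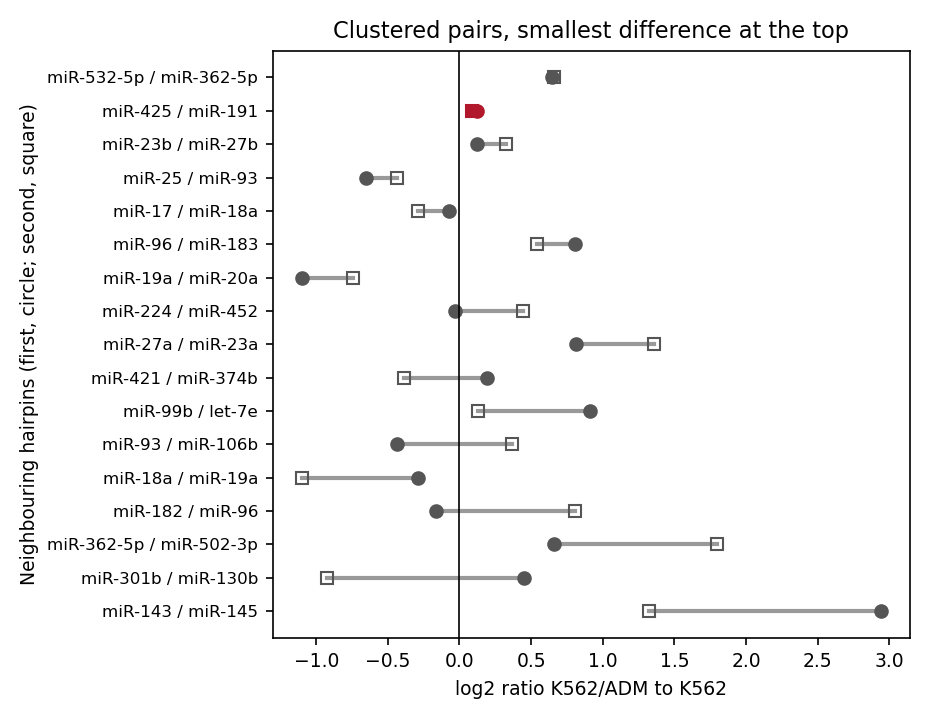
Log2 ratio of K562/ADM to K562 (x axis) of the more abundant arms of 17 pairs of neighbouring hairpins (y axis), sorted by the difference within the pair with the smallest at the top. The circle is the first name and the square the second, with miR-425 and miR-191 in red. The red marks nearly coincide, 0.03 apart, while the pair at the bottom, miR-143 and miR-145, is 1.62 apart.

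The study's PCR assays divided each miR by miR-425, so the same division was done on reads, and then repeated with the partner. By PCR the study found miR-381, miR-494, miR-495, miR-376c and miR-655 lower in K562/ADM. The PCR values themselves are not set beside the reads here. The specific parts of both primers, 17 and 6 bases long, match the 5′ side of the MIR425 hairpin 1 time each and miR-425-3p 0 times, so the assay read the guide arm. MiR-16, which lies outside 14q32 and was the study's negative control, had 19707 reads in K562/ADM and 16322 in K562. Its ratio was 1.36 against miR-425 (1.33 to 1.40), 1.39 against miR-191 and 1.48 by the median of ratios. MiR-381, of the 14q32 domain, had 1252 reads in K562/ADM and 149839 in K562. It was 106-fold lower in K562/ADM against miR-425 (100.2 to 113), 104-fold lower against miR-191 and 97.7-fold lower by the median of ratios.

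The other 4, also of the 14q32 domain, gave the same picture. MiR-376c had 83 reads in K562/ADM and 6583 in K562, and was 70.4-fold lower against miR-425 (56.6 to 88.5) and 68.7-fold lower against miR-191. MiR-655 was 43.3-fold (28.5 to 69.5) and 42.3-fold lower. MiR-495 had 3 reads in K562/ADM and 295 in K562, and its ratio to miR-425 was 87.2-fold lower with a wide interval (29.6 to 425.5). MiR-494 had 1 read in K562/ADM and 394 in K562, 350-fold lower with an interval of 62.4 to 13841. The choice between miR-425 and miR-191 as reference moves all 6 ratios by the same factor, the quotient of 0.977 given above. Against miR-425*, which would be a poor reference at 116 and 200 reads, miR-381 was 69.4-fold lower (54.3 to 88.3) and miR-16 was 2.08-fold higher (1.65 to 2.64).

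**Figure D5:**
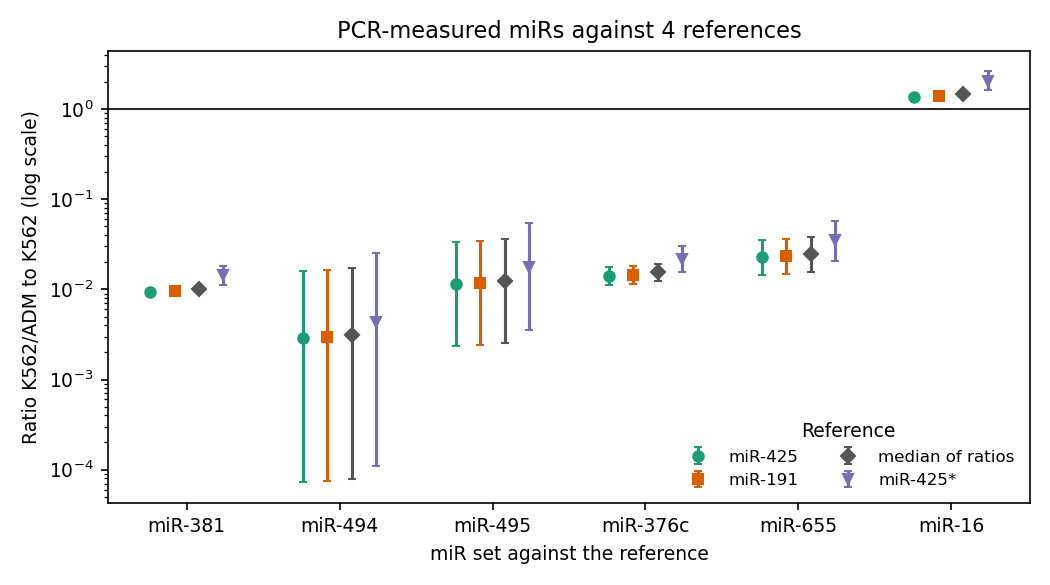
K562/ADM over K562 as a ratio (y axis, log scale) for the 6 miRs that the study set against miR-425 by PCR, from reads, against miR-425, miR-191 and miR-425* and by the median of ratios. Bars are exact 95% intervals that cover counting error only. For each miR the points against miR-425 and miR-191 lie together, miR-425* lies above them, and miR-16 is above 1 under each of the 4.

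Over all names, miR-425 as the only reference gave 163 lower and 94 higher names, and miR-191 gave 161 and 96, against 146 and 104 by the median of ratios. The call of 27 names differed from the median of ratios with miR-425 as reference, and that of 23 with miR-191.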

How the data were processed

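The authors grouped reads into unique sequences, left out those seen once, and aligned what remained with Bowtie against miRBase 16 (miRanalyzer). They deposited the signal, read counts divided by DESeq size factors. CASAVA 1.7.0 and hg18 stand in the submitters' processing notes. The deposited fold, its log2 and the unadjusted and adjusted p-values are the authors' comparison and were not used. Reads were recovered from the deposited values, 100% whole within 0.001. With 1 library for each line no residual degrees of freedom exist for a count model, so the rule for a call was a ratio of at least 2-fold by the median of ratios with an exact 95% Clopper-Pearson interval that excluded 1. Names absent from 1 library counted as past 2-fold, and no read floor entered the call. The floor of 3 reads for each library, taken on the sum of both, served to withhold the ratio of a member. Quotients of 2 miRs were conditional odds ratios with exact 95% intervals. Clustered hairpins and 14q32 (92 names) were placed by RefSeq (821 names at 1 gene) and hairpin positions by GENCODE. The members, the marker and reference lists and the tests were chosen with earlier results of these data known. Names given are the members, the reference and PCR lists, the 5 nearest names to each guide arm and clustered pairs, and names that mark a range or a count were chosen after their values were seen. The intervals of ratios and quotients and the rule for a call were tested on simulated data, with the library scaling taken as known. Those data held counting error alone, and the quotients were drawn at more reads than miR-191* had. Spread between cultures and the other steps were not tested. TMM and upper-quartile factors came from edgeR 4.0.16 in R 4.3.3, intervals from scipy 1.17.1, and tables from pandas 2.3.3 and numpy 2.4.6 in Python 3.11.15, with figures by matplotlib 3.10.9.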

Additional observations from a re-analysis of the deposited data

How the results depend on the processing

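Quotients inside a library do not depend on scaling, and those of miR-191 with miR-425 and of the arms kept their values. The ratios do depend on it. By total reads, upper quartile, median of ratios without 14q32, median of ratios over names with at least 100 reads and all sequenced reads, miR-425 was at 0.988, 1.82, 1.01, 1.18 and 0.775, and miR-191 at 0.965, 1.78, 0.987, 1.15 and 0.757. MiR-425* was at 1.19 by upper quartile and 0.507 by all sequenced reads. In that order of scalings 5, 70, 2, 31 and 47 names were nearer to 1 than miR-425, against 19, and by upper quartile, without 14q32, over names with at least 100 reads and by all sequenced reads 66, 4, 27 and 51 were nearer than miR-191, against 13. With at least 100 reads in place of 1000 the counts were 34 and 25, and with at least 10000 they were 7 and 6. By the median of ratios miR-16 was at 1.48 and miR-381 at 0.0102, against 1.36 and 0.00942 with miR-425 as reference. Upper quartile gave 95 lower and 223 higher names, and all sequenced reads gave 218 lower and 68 higher, against 146 and 104. Of all the alternatives 59 were classed as unmoved, among them the 218 lower names by all sequenced reads. Counts of names have no interval, so for them this class does not rest on counting error. No paired analysis was possible because each cell line has 1 library and the labels give no replicate numbers, and for the same reason no replicate could be left out. Depth limits miR-191* (15 and 25 reads) and miR-494 (1 and 394 reads). No interval covers the spread between cultures.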

Other observations

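Apart from the pair, 26 names were placed on chromosome 3 by GENCODE, 8 of them with at least 100 reads. Of the 26, 1 was called lower and 2 higher in K562/ADM, against 26.8% of all names called. These calls rest on few reads. MiR-3136, called lower, had 28 reads in K562/ADM and 79 in K562. Those called higher had 0 reads in K562, with 11 in K562/ADM for miR-3923 and 5 for miR-944. Within 5 Mb of MIR425 lay 6 other names, of which 0 were called and 2 had at least 100 reads. One of these was let-7g, a member of the let-7 family, with 685 reads in K562/ADM and 1145 in K562, a ratio of 0.733 (0.665 to 0.806), which lies below that of both guide arms of the pair.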
